A study of Bos taurus with 17 samples.

Results

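Transcripts of the steroid hormone receptors were followed in cumulus cells, the somatic cells that surround the oocyte in the ovarian follicle. The members were the probes of a bovine expression array that bear the symbol, or whose description names the receptor, of the oestrogen receptors ESR1 and ESR2, the progesterone receptor PGR, the glucocorticoid receptor NR3C1, the mineralocorticoid receptor NR3C2, the progesterone receptor membrane components PGRMC1 and PGRMC2, and the receptor interacting protein NRIP1. These were 11 probes for 8 genes, of 21475 non-control probes on the array, which cover 15014 named genes. A further 6 probes only mention a receptor in their description, as a binding partner or a related protein, and were not counted as receptors.

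Cumulus cells of 17 cattle were each hybridised to 1 array with a single dye, at 3 stages. NC1 cells came from 6 prepubertal calves aged 3 to 6 months, and their oocytes are described as immature, in prophase I and not yet competent for development. C1 cells came from 6 adult cows of unstated age, with oocytes that were also in prophase I but competent. Both were aspirated after slaughter from follicles (for NC1, of 3 to 6 mm), and only complexes with several layers of compact cumulus were kept. C2 cells came from 5 cycling, non-lactating Holstein cows aged 3 to 5 years, with mature oocytes in metaphase II. These cows had received progestagen ear implants, then FSH and LH over 4 days to stimulate several follicles, and prostaglandin F2α, and complexes with an expanded cumulus were aspirated from the living animal 60 h after the prostaglandin, from follicles over 8 mm. Age, hormone treatment, follicle size and way of collection therefore change together with the stage and cannot be told apart. The labels give the tissue as ovarian follicles, and the separation of cumulus cells is described in the methods only.

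Steroid receptors of the nuclear family are transcription factors held by heat shock chaperones until the hormone binds, after which they bind DNA and recruit coactivators or corepressors. In the follicle, ESR2 is known as the main oestrogen receptor of granulosa and cumulus cells, ESR1 is known mostly from theca and stroma, and PGR is induced in granulosa cells by the LH surge and is needed for the follicle to rupture. PGRMC1 and PGRMC2 are haem-binding membrane proteins that are unrelated to the nuclear receptors and are linked to rapid actions of progesterone.

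Each probe is a single strand of DNA of 60 bases, and these probes are shown because the results turn on them. The PGR probe A_73_111533 lies in the part that encodes the DNA-binding zinc fingers, and its capitals mark the 18 bases that encode the P box, the stretch of the first finger that reads the hormone response element. The other PGR probe is given whole, and of the ESR2 and ESR1 probes the first 30 bases are given.
PGR A_73_111533: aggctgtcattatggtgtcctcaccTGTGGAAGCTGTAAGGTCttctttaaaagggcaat
PGR A_73_103698: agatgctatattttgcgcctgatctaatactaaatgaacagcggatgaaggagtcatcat
ESR2 A_73_112980: tcagggtgcaaaagccagtactcttgtcat
ESR1 A_73_116044: ttctgttttgttgcagcttcgctttgttta
The P box is shared in protein sequence by PGR, NR3C1 and NR3C2, so the letters of the probes were compared with each other. No receptor transcripts were searched, so whether this PGR probe binds the transcript of another receptor was not tested. Any spelling of the P box, on the strand printed, was found in 1 of the 15256 probes with a sequence, and the longest run shared by any 2 of the 9 member probes with a sequence was 9 bases. No position is given for the probes because the files name no genome build.

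Signals are given as log2 scaled signal, that is log2 of the background-corrected intensity relative to the median probe of the same array, and a difference of 1 on this scale is a doubling. Levels of different probes cannot be set against each other. A probe was valid when at least 80% of each stage's arrays had it above background, which held for 8 of the 11 member probes and for 13865 probes in all. Between 66.2% and 82.8% of probes were well above background on an array. Stages were compared in 1 limma fit over all valid probes, with p-values adjusted over all of them and called when under 0.01. In bulk cells, fewer cells of a type and less RNA per cell cannot be told apart.

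The replicates of C2 were less alike than those of the other stages. The SD over valid probes of the log2 difference between arrays was 0.43 to 0.69 within NC1 and 0.45 to 0.76 within C1. Within C2 it was 0.44 between replicates 1 and 5 and 0.51 between replicates 3 and 4, and 1.05 to 1.27 for all the other pairs. The C2 arrays are therefore described singly for each receptor. C2 replicates 3 and 4 were scanned on the same day as 3 NC1 and 3 C1 arrays, and the other 3 C2 arrays on the other day.

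**Figure D1:**
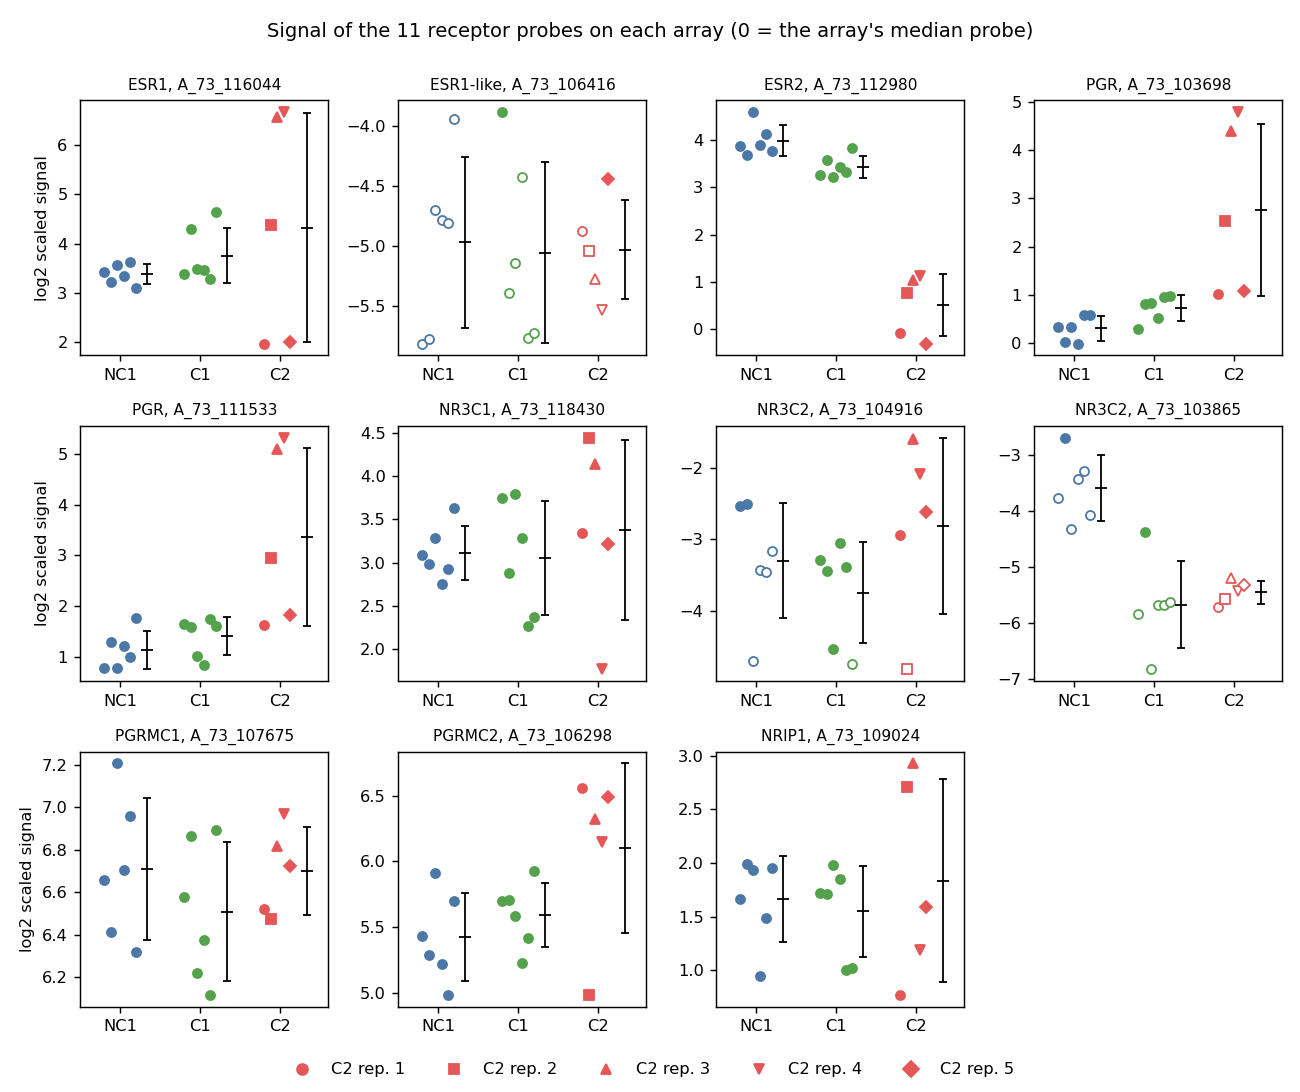
Log2 scaled signal (y axis, 0 is the median probe of the array) of the 11 receptor probes on each array, by stage (x axis). Points are arrays, open where the probe was not well above background, symbols mark the C2 replicates, and black bars give mean and SD. ESR2 at C2 lies below every NC1 and C1 array, and ESR1 and PGR spread widely among the C2 arrays.

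Of the 8 valid receptor probes, 3 differed between C2 and C1, against 28.1% of all valid probes. ESR2 fell and both probes of PGR rose. Between C2 and NC1, 3 of the 8 were called, ESR2 and both probes of PGR, against 28.1% of all valid probes. None of the 8 was called between C1 and NC1, where 0.0577% of all valid probes were, and 1 of the 8, ESR2, had an unadjusted p under 0.05 there (limma, 0.0357), against 9.84% of all valid probes. Over the 3 stages together, 3 of the 8 passed the moderated F test, against 28.6% of all valid probes.

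The transcript of ESR2, which binds oestradiol, showed the largest fall among the valid receptor probes. Its log2 scaled signal on the 5 C2 arrays was -0.08, 0.76, 1.03, 1.12 and -0.31 for replicates 1 to 5. On the C1 arrays it ranged from 3.22 to 3.84 with a median of 3.37, and on the NC1 arrays from 3.68 to 4.60 with a median of 3.89. Every C2 array lay below every array of the immature stages, as was the case between C2 and C1 for 21.6% and between C2 and NC1 for 20.9% of all valid probes in either direction. The stage means were 3.99 ± 0.34 for NC1 (SD, n = 6), 3.44 ± 0.24 for C1 (SD, n = 6) and 0.50 ± 0.66 for C2 (SD, n = 5).
ESR2 was 7.64-fold lower at C2 than at C1 (log2 difference -2.93, SE 0.26, limma adjusted p = 6.84e-08) and 11.2-fold lower than at NC1 (log2 difference -3.49, SE 0.26, limma adjusted p = 9.36e-09). Within each of the 5 slides that hold a C2 array, the difference from the C1 array was between -3.92 and -2.10. ESR2 was also lower at C1 than at NC1 on all 6 slides, with differences of -1.18 to -0.03, and 5 of the 6 C1 arrays lay below every NC1 array. This smaller difference (log2 -0.55, SE 0.24) did not pass the adjusted test (limma adjusted p = 0.45), and the 2-sided exact permutation test of this probe alone gave p = 0.00649.

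ESR1, the other nuclear oestrogen receptor, had its main difference within C2. Its log2 scaled signal on the C2 arrays was 1.97, 4.39, 6.58, 6.68 and 1.99 for replicates 1 to 5, whereas it ranged from 3.09 to 3.63 at NC1 (median 3.38) and from 3.27 to 4.64 at C1 (median 3.47). C2 replicates 3 and 4 lay above every array of the immature stages and replicates 1 and 5 lay below all of them. The range of 4.72 among the C2 arrays was wider than that of 98.0% of valid probes, whose median range was 1.21. The 2 spots of the probe differed by at most 0.158 on any C2 array. The means, 3.38 ± 0.21 for NC1 (SD, n = 6), 3.76 ± 0.57 for C1 (SD, n = 6) and 4.32 ± 2.33 for C2 (SD, n = 5), did not differ beyond this spread. The log2 difference was 0.56 (SE 0.70, limma adjusted p = 0.546) between C2 and C1, and it was -0.025 when C2 replicate 4 was left out and -0.0009 without replicate 3. The NC1 and C1 arrays scanned on the same day as C2 replicates 3 and 4 lay within 3.09 to 4.29. The C2 mean differed from the C1 mean by 2.89 on that day and by -0.98 on the other.

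Within the immature stages ESR1 was less variable. Among the C1 arrays, replicates 2 and 6 (4.29 and 4.64) lay above every NC1 array, and the remaining 4 C1 arrays lay between 3.27 and 3.49. The ESR1 description is also borne by probe A_73_106416, which stands for a predicted gene similar to ESR1. It was well above background on 0 of 6 NC1, 1 of 6 C1 and 1 of 5 C2 arrays, with signals from -5.81 to -3.89, and gives no comparison.

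The signals of the 2 oestrogen receptors can be set out as a ratio within each array, a measure that was chosen after the values were seen and is given without a test. The log2 ratio of the ESR1 signal over the ESR2 signal, whose zero is arbitrary, had a mean of -0.61 (range -1.03 to -0.46) at NC1, 0.32 (range -0.05 to 0.80) at C1 and 3.82 (range 2.04 to 5.56) at C2. The 3 stages did not overlap in this ratio, although C1 and NC1 overlapped for ESR1 and for ESR2 alone. Among single valid probes, 21.6% did not overlap between C2 and C1 and 2.1% between C1 and NC1. The share among ratios of 2 probes was not counted. C2 replicates 1 and 5, in which ESR1 itself was low, still had ratios above every C1 array because ESR2 was lower still. The log2 ratio of PGR over ESR2 was -2.85 at NC1, -2.03 at C1 and 2.86 at C2, and its lowest C2 value, 1.70, was above its highest C1 value, -1.57.

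**Figure D2:**
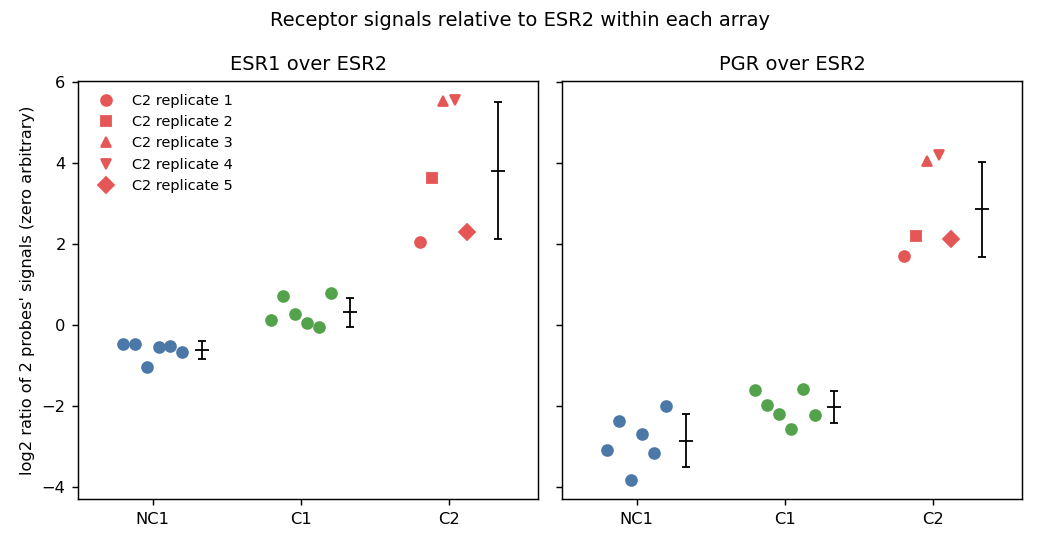
Log2 ratio of the ESR1 signal (left) and of the PGR signal (probe A_73_111533, right) over the ESR2 signal on the same array (y axis, zero arbitrary), by stage (x axis). Points are arrays, with symbols for the C2 replicates, and black bars give mean and SD. For ESR1 over ESR2, a ratio chosen after the values were seen, the stages lie in separate ranges, with C2 between 2.04 and 5.56.

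PGR, the nuclear progesterone receptor, rose at C2 with both of its probes. On probe A_73_111533, the brighter one, the C2 arrays gave log2 scaled signals of 1.62, 2.96, 5.09, 5.32 and 1.82 for replicates 1 to 5. The C1 arrays ranged from 0.85 to 1.75 (median 1.60) and the NC1 arrays from 0.77 to 1.77 (median 1.099). Replicates 2, 3, 4 and 5 lay above every array of the immature stages and replicate 1 lay within their range. On probe A_73_103698, the C2 arrays gave 1.01, 2.54, 4.40, 4.80 and 1.07, the C1 arrays 0.29 to 0.98 (median 0.82) and the NC1 arrays -0.01 to 0.58 (median 0.33). On this probe every C2 array was above every other array, replicates 1 and 5 by a small margin. Groups did not overlap, in either direction, for 21.6% of all valid probes between C2 and C1 and for 20.9% between C2 and NC1. The 2 probes, which share no run longer than 9 bases, ran in parallel, and the SD of their difference over the 17 arrays was 0.358.
The stage means of A_73_111533 were 1.14 ± 0.38 for NC1 (SD, n = 6), 1.41 ± 0.38 for C1 (SD, n = 6) and 3.36 ± 1.76 for C2 (SD, n = 5). This made PGR 3.87-fold higher at C2 than at C1 on A_73_111533 (log2 difference 1.95, SE 0.54, limma adjusted p = 0.00753) and 4.09-fold higher on A_73_103698 (log2 difference 2.03, SE 0.53, limma adjusted p = 0.00534). Against NC1, PGR was 4.68-fold (log2 2.23, limma adjusted p = 0.00302) and 5.50-fold (log2 2.46, limma adjusted p = 0.00129) higher on the same probes. The fit shares 1 estimate of the spread over the stages, so these SE and p-values do not carry the wider spread of C2.
The size of the rise rested on C2 replicates 3 and 4. Without replicate 4 the log2 difference from C1 was 1.46 (limma adjusted p = 0.0237) and 1.52 (0.0155) on the 2 probes, and without replicate 3 it was 1.52 (0.0258) and 1.62 (0.0186), so that neither probe was called. On A_73_111533 the call was also lost when any 1 of the 6 C1 arrays was left out (limma adjusted p = 0.0109 to 0.0181), without NC1 replicate 2 (0.01001) or 4 (0.01002), with scaling on the 75th percentile (0.0127), with the normexp correction (0.0122), without a filter (0.0104), with array weights (0.0294) and with slide (0.0131) or replicate number (0.0128) as a block. On A_73_103698 it was lost without C1 replicate 1 (0.0126) or C1 replicate 4 (0.0117) and with array weights (0.0148). Against NC1, A_73_111533 lost its call with array weights (log2 1.52, limma adjusted p = 0.0151) and without C2 replicate 3 (log2 1.79, limma adjusted p = 0.0101). On every one of the 5 slides both probes were higher at C2 than at C1, by 0.0079 to 4.31 on A_73_111533. On the scan day of C2 replicates 3 and 4, the C2 mean exceeded the C1 mean by 4.06 on A_73_111533 and 3.88 on A_73_103698. On the other day it did so by 0.46 and 0.80.

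**Figure D3:**
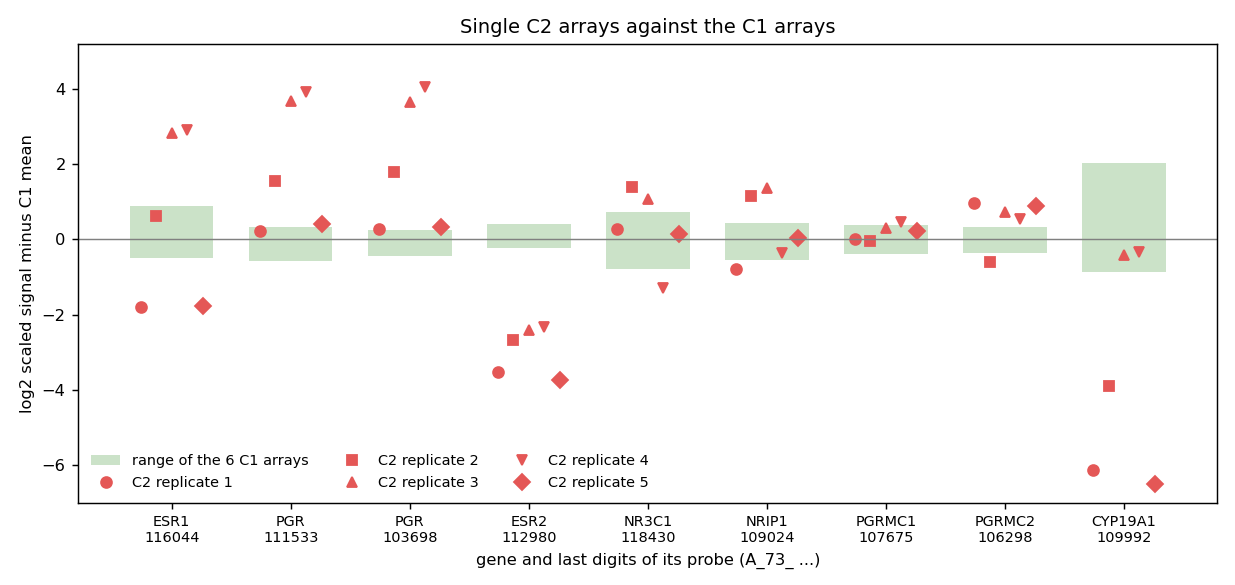
Log2 scaled signal on each of the 5 C2 arrays minus the C1 mean (y axis) for the 8 valid receptor probes and CYP19A1 (x axis). Symbols are C2 replicates and green bands span the 6 C1 arrays. Replicates 3 and 4 are high and replicates 1 and 5 low for ESR1, PGR, ESR2 and CYP19A1, whereas all 5 arrays lie below the band for ESR2.

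NR3C1, the glucocorticoid receptor, did not pass the test in any comparison. Its log2 scaled signal on the C2 arrays was 3.34, 4.44, 4.14, 1.77 and 3.21 for replicates 1 to 5, against 2.26 to 3.79 (median 3.08) at C1 and 2.75 to 3.63 (median 3.04) at NC1. Replicates 2 and 3 lay above and replicate 4 below every array of the immature stages. The log2 difference was 0.32 (SE 0.39, limma adjusted p = 0.538) between C2 and C1 and 0.27 (SE 0.39, limma adjusted p = 0.622) between C2 and NC1. C2 replicates 3 and 4, which were alike for ESR1 and PGR, were thus unlike for NR3C1.

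NR3C2, the mineralocorticoid receptor, was near the detection limit. Probe A_73_103865 was well above background on 1 of 6 NC1, 1 of 6 C1 and 0 of 5 C2 arrays. Its log2 scaled signal was -4.33 to -2.69 at NC1, -6.83 to -4.37 at C1 and -5.71 to -5.20 at C2, so that no array of C1 or C2 reached the lowest NC1 array. Groups that do not overlap occurred between C1 and NC1 for 2.1% of all valid probes. With 2 of 17 arrays above background, these signals give no fold change. The oocyte markers described further on also ran highest at NC1. The lowest signal well above background on an array was -6.25 to -4.67 at NC1, -7.01 to -5.90 at C1 and -6.42 to -5.48 at C2. CDH5, EMCN and ERG were not well above background on any array. Their means were -4.68, -4.74 and -5.24 at NC1 and -5.84, -6.09 and -5.89 at C1. The part of oocyte RNA and of this floor in the NR3C2 signals was not tested. Probe A_73_104916 was well above background on 2 of 6 NC1, 5 of 6 C1 and 4 of 5 C2 arrays, and its 3 stages overlapped at -4.70 to -2.51, -4.74 to -3.06 and -4.81 to -1.59.

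Neither membrane component was called in any comparison. PGRMC1 had mean log2 scaled signals of 6.71 ± 0.33 for NC1 (SD, n = 6), 6.51 ± 0.33 for C1 (SD, n = 6) and 6.70 ± 0.21 for C2 (SD, n = 5), and its 5 C2 arrays lay between 6.47 and 6.97. The log2 difference was 0.19 (SE 0.20, limma adjusted p = 0.463) between C2 and C1 and -0.0096 (SE 0.20, limma adjusted p = 0.976) between C2 and NC1. PGRMC2 gave 6.56, 4.98, 6.32, 6.15 and 6.49 on C2 replicates 1 to 5, against 5.23 to 5.93 at C1 and 4.98 to 5.91 at NC1. All C2 arrays but replicate 2 lay above every array of the immature stages. The log2 difference for PGRMC2 was 0.51 (SE 0.25, limma adjusted p = 0.12) between C2 and C1 and 0.68 (SE 0.25, limma adjusted p = 0.0404) between C2 and NC1. Without C2 replicate 2 it was 0.79 (limma adjusted p = 0.00347) and 0.96 (limma adjusted p = 0.000768).

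NRIP1, a corepressor that ligand-bound receptors recruit, gave 0.77, 2.71, 2.93, 1.19 and 1.59 on C2 replicates 1 to 5, against 1.01 to 1.98 at C1 and 0.94 to 1.99 at NC1. Replicates 2 and 3 were above and replicate 1 below every other array. The log2 difference was 0.29 (SE 0.35, limma adjusted p = 0.536) between C2 and C1. Replicates 2 and 3 were also the highest of the C2 arrays for NR3C1.

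**Figure D4:**
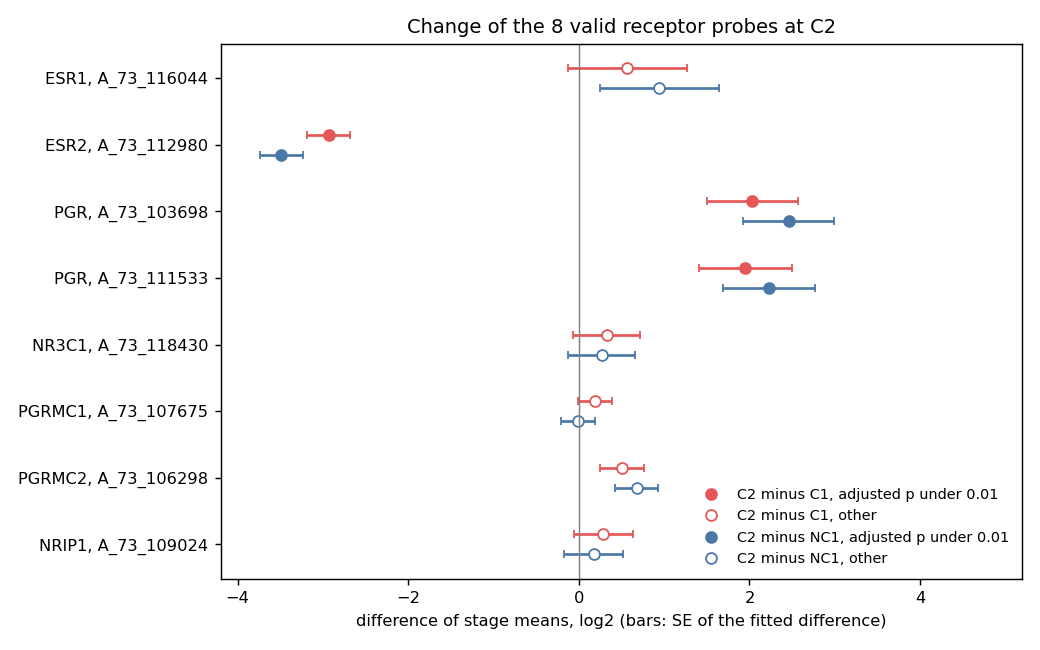
Difference of stage means on the log2 scale (x axis) for the 8 valid receptor probes (y axis), C2 minus C1 in red and C2 minus NC1 in blue. Bars give the SE of the fitted difference, and filled points have a limma adjusted p under 0.01: ESR2 at -2.93 and -3.49 and both PGR probes at 1.95 to 2.46.

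Markers of cell types were summed on each array as linear scaled signal (1 is the median probe). The granulosa and cumulus list was detected throughout, with 10 of 11 genes valid. Of these 10, 6 were lower at C2 than at C1 and none higher, where 12.8% and 15.3% of all valid probes were. The sum of this list was 4748 to 10154 at NC1 and 4868 to 7348 at C1, and on C2 replicates 1 to 5 it was 1828, 3346, 5679, 6047 and 1661. The C2 arrays thus stood in the same high and low places for this sum as for ESR1 and PGR. Its part in the spread of ESR1 and PGR was not tested. The theca and stroma list summed to 352, 459, 440, 605 and 302 on C2 replicates 1 to 5, against 175 to 309 at NC1 and 199 to 311 at C1. Of its 9 valid genes, 2 were higher (COL1A1 and LUM, of the extracellular matrix) and 1 lower (TCF21) at C2 than at C1. Of all valid probes, 15.3% were higher and 12.8% lower. CYP17A1, the theca enzyme that makes androgens, lay between 1.34 and 2.25 on the log2 scale at C2, against stage means of 2.05 at NC1 and 2.15 at C1. Its range over the C2 arrays was the narrowest of the list. The widest were those of COL3A1 (-2.93 to 4.28), COL1A2 (-2.84 to 3.38), PDGFRA (0.83 to 4.64), ACTA2 (1.05 to 4.74) and PDGFRB (-5.08 to -1.65). INSL3, COL1A1, DCN, LUM and TCF21 lay between. COL1A2 and PDGFRB were not valid. The oocyte list summed to 59.9 to 142 at NC1, 5.19 to 54.7 at C1 and 3.61 to 8.01 at C2. None of the 4 valid oocyte genes was called between C2 and C1, where 28.1% of all valid probes were. The remaining oocyte genes on the array, BMP15, ZP2, ZP4, DAZL, FIGLA, MOS and ZAR1, were not valid and so could not be called. They were well above background on 2 to 5 of 6 C1 arrays and on at most 1 of 5 C2 arrays. This count therefore does not show that oocyte transcripts were equal at C1 and C2. The leukocyte list summed to 24.3 to 64.0 at C2 and 24.2 to 49.2 before, and of its 9 valid genes CD14 (mean log2 scaled signal 0.24 at C1 and 1.46 at C2, limma adjusted p = 0.00228) and LYZ (-1.68 and 0.21, limma adjusted p = 0.000115) were higher at C2 and none lower. The endothelium list summed to 2.90 to 11.5 at C2 and 1.54 to 3.09 before. Of its 5 valid genes KDR was called higher at C2 than at C1 (means 1.61 and -1.97, limma adjusted p = 1.69e-05) and none was called lower. The other valid genes did not move together. Means at C1 and C2 were -1.08 and -1.86 for TEK (limma adjusted p = 0.0101) and -2.96 and -3.66 for PECAM1. They were -1.27 and -1.33 for CLDN5 and -1.55 and -1.06 for VWF, which ranged from -3.60 to 2.46 over the C2 arrays. CDH5, EMCN and ERG were not well above background on any array. The red blood cell list summed to 2.57 to 51.6 at C2 and 28.1 to 258 before, and HBA, an alpha globin that was well above background on all arrays, was lower at C2 (mean log2 scaled signal 6.06 at NC1, 6.68 at C1 and 2.67 at C2, limma adjusted p = 7.49e-05 between C2 and C1). The counts called in the theca, leukocyte and endothelium lists were near the shares of 15.3% higher and 12.8% lower over all valid probes. The part of the listed cell types in the receptor changes was not tested.

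Among the enzymes that make or inactivate the hormones inside the cell, 3 (HSD17B1, HSD11B1 and CYP19A1) had larger log2 differences between C2 and C1 than any valid receptor probe. Of 15 genes on the array in the list of local steroid conversion, 11 were valid, and 4 of these rose and 3 fell at C2 against C1, where 15.3% and 12.8% of all valid probes did, with a median log2 change of 0.79 beside 0.02 over all valid probes. HSD17B1, which turns oestrone into oestradiol, gave 2.47, 3.53, 1.06, 1.73 and 0.11 on C2 replicates 1 to 5 and at least 7.48 on every array of the immature stages. It was 87.8-fold lower at C2 than at C1 (log2 difference -6.46, SE 0.41, limma adjusted p = 1.34e-09). HSD11B1, which turns cortisone into cortisol, gave 4.05 to 5.63 at C2 and at most -0.38 before, and was 62.8-fold higher at C2 than at C1 (log2 difference 5.97, SE 0.38, limma adjusted p = 1.41e-09). CYP19A1, the aromatase that makes oestrogens from androgens, gave -3.38, -1.15, 2.34, 2.43 and -3.74 on C2 replicates 1 to 5, the arrays being high and low in the same places as for ESR1. It fell by 3.45 on the log2 scale at C2 against C1 (SE 0.95, limma adjusted p = 0.00704), though replicates 3 and 4 lay within the C1 range of 1.89 to 4.79. The other calls, named after their values were seen, were rises of HSD17B12 (log2 1.34), HSD17B7 (1.23) and POR (0.92) and a fall of HSD17B8 (-1.01). HSD11B2, which inactivates cortisol, was not called (log2 difference 1.77, SE 1.05, limma adjusted p = 0.192). Against NC1, 4 of the 11 rose and 2 fell, where 15.5% and 12.6% of all valid probes did.

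Genes known to respond to glucocorticoids rose more often than they fell. Of 26 valid genes, 13 rose and 2 fell at C2 against C1 where 15.3% and 12.8% of all valid probes did, and the median log2 change was 1.23 beside 0.02 over all valid probes. The 3 largest changes were those of CDKN1C, an inhibitor of the cell cycle (log2 6.07, SE 0.55, limma adjusted p = 1.03e-07), ZBTB16, a transcription repressor (log2 4.53, SE 0.42, limma adjusted p = 1.45e-07), and MT1A, a metallothionein (log2 4.06, SE 0.47, limma adjusted p = 2.23e-06), and for each of them all 5 C2 arrays lay above all arrays of both immature stages. Such a lack of overlap, in either direction, held for 21.6% of all valid probes between C2 and C1 and 20.9% between C2 and NC1. ZBTB16 was between 1.53 and 2.92 on the C2 arrays, with 1.92 on replicate 4, where NR3C1 was lowest. Whether ZBTB16 followed NR3C1 in these cells was not tested. The 2 that fell against C1 were TAT, a tyrosine-degrading enzyme (log2 -2.61), and DDIT4, an inhibitor of mTOR signalling (log2 -1.89), named after their values were seen. Against NC1, 13 of the 26 rose and 3 fell (TAT, DDIT4 and the clock gene PER1), where 15.5% and 12.6% of all valid probes did.

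Of the 18 valid genes of a list linked to PGR at ovulation, mostly from work in rodents, 10 rose and 3 fell at C2 against C1, where 15.3% and 12.8% of all valid probes did, with a median log2 change of 1.91. PTGS2, which makes prostaglandins, gave 4.68, 6.70, 5.53, 5.48 and 5.04 on C2 replicates 1 to 5 and at most 3.41 before (log2 difference from C1 4.75, SE 0.47, limma adjusted p = 2.97e-07). RUNX2, a transcription factor, gave 5.86, 5.34, 4.87, 4.77 and 6.03 at C2 and at most 2.17 before (log2 difference 4.47, SE 0.57, limma adjusted p = 5.43e-06). ZBTB16 and MT1A belong to this list too. C2 replicates 1 and 5, which were low for PGR, were the lowest C2 arrays for PTGS2 and the highest for RUNX2. For both genes they lay above every array of the immature stages. Whether PTGS2 and RUNX2 followed PGR in these cells was not tested. The 3 that fell, named after their values were seen, were VEGFA, which promotes vessel growth (log2 -3.72), PPARG, a nuclear receptor (log2 -2.20), and CTSL, a protease (log2 -1.16). Against NC1, 9 of the 18 rose and VEGFA and PPARG fell, where 15.5% and 12.6% of all valid probes did.

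Genes known to respond to oestrogen showed 2 rises and 5 falls among 17 valid genes at C2 against C1, where 15.3% of all valid probes rose and 12.8% fell, and the median log2 change was -0.46. MYC, a growth-promoting transcription factor, gave 3.82, -1.26, 2.02, 2.38 and 3.76 on C2 replicates 1 to 5 and at least 6.19 before (log2 difference -4.78, SE 0.62, limma adjusted p = 7.89e-06). FOXL2, a transcription factor that maintains granulosa identity and is also in the granulosa list, gave 5.02 to 5.37 at C2 and at least 7.04 before (log2 difference -2.99, SE 0.20, limma adjusted p = 3.56e-09). CCND1, a cyclin, rose by 2.44 (SE 0.64, limma adjusted p = 0.00521), although C2 replicate 2, at -2.25, lay within the C1 range. PGR itself is the other gene of this list that rose, and SGK3 (log2 -1.61), ADORA1 (log2 -0.95) and RARA (log2 -0.79) complete those that fell, named after their values were seen. GREB1, a gene that oestrogen receptors induce in many tissues, was not called (log2 difference -0.71). Against NC1, 1 of the 17 rose and 5 fell, where 15.5% and 12.6% of all valid probes did.

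Of the 26 valid coactivators and corepressors, 4 rose and 2 fell at C2 against C1, where 15.3% and 12.8% of all valid probes did, so the rises were near the share over all probes. The median log2 change was 0.012. Against NC1, 4 of the 26 rose and 4 fell, where 15.5% and 12.6% of all valid probes did. NCOA2, a p160 coactivator, fell by 1.87 (SE 0.37, limma adjusted p = 0.000533). CITED2, a partner of the acetyltransferases EP300 and CREBBP and also in the PGR-dependent list, rose by 1.76 (SE 0.25, limma adjusted p = 2.23e-05). NCOA3, a p160 coactivator like NCOA2, gave 1.46, 1.62, 1.26, 1.45 and 1.31 on C2 replicates 1 to 5 and at most 1.08 before, and rose by 1.17 (SE 0.19, limma adjusted p = 7.04e-05). NCOA1, the remaining p160 coactivator, rose by 0.77, and a second valid probe of NCOA1 was not called. HDAC3, a histone deacetylase, rose (log2 1.04) and NCOA7, a coactivator outside the p160 family, fell (log2 -1.05), and these were, like NCOA1, named after their values were seen.

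Among 20 valid chaperones and co-chaperones, 3 rose and none fell at C2 against C1, where 15.3% and 12.8% of all valid probes did, so the rises were near the share over all probes, with a median log2 change of 0.28. FKBP5, an immunophilin of the receptor complex that glucocorticoids and progestins induce, gave 6.68 to 7.29 at C2 and at most 5.08 before (log2 difference 3.12, SE 0.24, limma adjusted p = 1.18e-08). ST13 and HSPA4 rose by 0.88 and 0.79. Against NC1, 2 of the 20 rose (FKBP5 and ST13) and 2 fell (HSPA1A and DNAJB1), where 15.5% and 12.6% of all valid probes did. A second valid probe of HSPA1A was not called there. Of the receptors related to the members, 9 of 17 genes on the array were valid. Of these 9, 1 rose and 1 fell at C2 against C1, where 15.3% and 12.8% of all valid probes did, so both counts were near those shares. The counts against NC1 were also 1 and 1. ESRRA, an orphan receptor related to the oestrogen receptors, rose by 1.54 (SE 0.32, limma adjusted p = 0.000764), and NR5A1, an orphan receptor that drives steroid synthesis genes, fell by 1.67 (SE 0.28, limma adjusted p = 9.64e-05). The remaining 7 were not called, and the membrane progestin receptors PAQR5, PAQR7 and PAQR8 and the membrane oestrogen receptor GPER1 were not valid. In none of the 7 lists was any gene called between C1 and NC1, where only 0.0577% of all valid probes were.

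**Figure D5:**
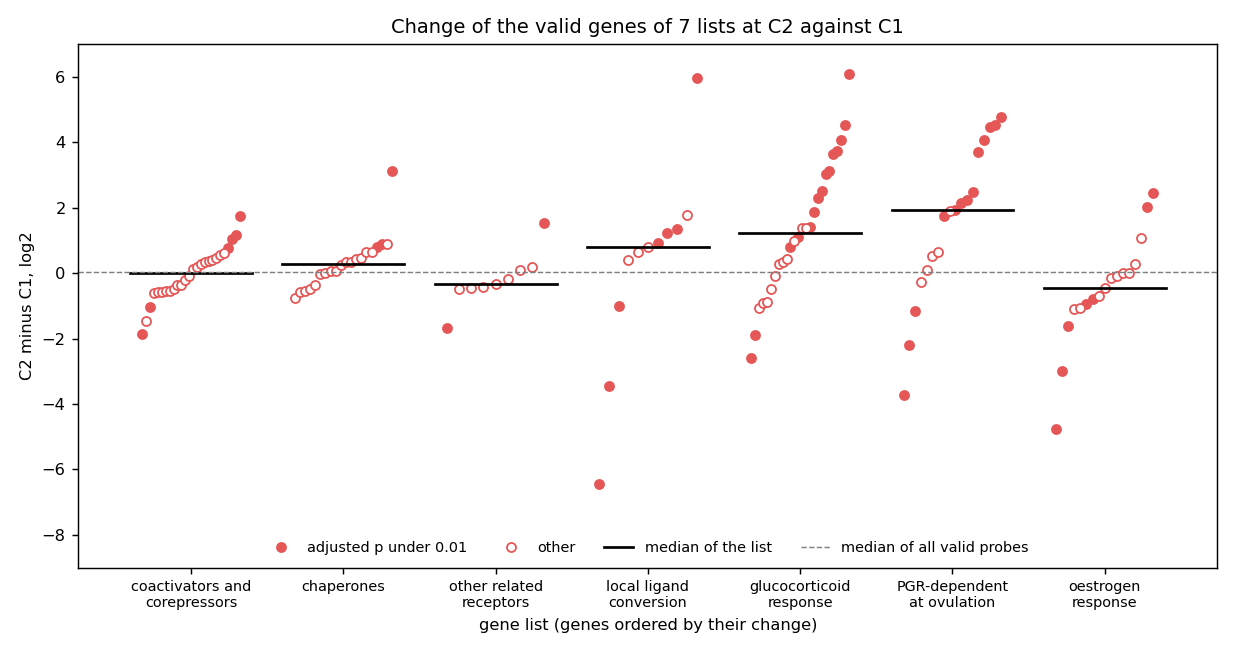
Log2 difference C2 minus C1 (y axis) of the valid genes of 7 lists (x axis, genes ordered by their change within a list). Filled points have a limma adjusted p under 0.01, black lines are list medians, and the dashed line is the median of all valid probes, 0.02. Medians are 1.91 for PGR-dependent and 1.23 for glucocorticoid-responsive genes and -0.46 for oestrogen-responsive genes.

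The named genes whose signal ran most like that of a called receptor were found by the root mean square difference over the 17 arrays, after each probe was centred on its mean. For ESR2, whose own root mean square around its mean was 1.53, these were IQGAP2 (0.30), ROR2 (0.33) and TRIM66 (0.36). IQGAP2, a scaffold protein, had mean log2 scaled signals of 6.38 at NC1, 6.30 at C1 and 3.32 at C2. For PGR (1.32 around its mean) they were DNAAF2 (0.45), TTC32 (0.47) and SLC18A2 (0.48). DNAAF2, an assembly factor of ciliary dyneins, ranged from 2.45 to 6.07 over the C2 arrays.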

How the data were processed

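The authors deposited the intensity of each spot as extracted with Agilent Feature Extraction 10.5.1.1 (background-subtracted, not scaled between arrays), and a table of log2 values scaled by the median of each array, which the authors made in GeneSpring. The processed signal was taken as log2, averaged per probe and centred on the array median over non-control probes. Stages were compared with lmFit and eBayes of limma 3.58.1 (statmod 1.5.0, R 4.3.3) over the 13865 valid probes of all 17 arrays, and p-values were adjusted by the Benjamini-Hochberg method, with a threshold of 0.01. Exact permutation tests were 2-sided, with a smallest p of 0.00433 for 5 against 6 arrays and 0.00216 for 6 against 6. On simulated independent arrays, with the same spread at all stages and shifts of a fixed size, 175 of 200 changed probes were recovered. The real C2 arrays were more spread and partly alike, so this share does not carry over to them. Other steps used Python (3.11.15), scipy (1.17.1), numpy (2.4.6) and pandas (2.3.3). RefSeq accessions, gene IDs or the array's own symbols and descriptions named 16633 probes. Named genes were all members, the 3 largest called changes of each list and the 3 most like probes of each called receptor, with other genes named for their role. A receptor that the rule also finds and a gene of the lists are not reported here and are left out of all counts of members and list genes. Members and lists were chosen with earlier results of these data known. The number of arrays limits precision.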

Additional observations from a re-analysis of the deposited data

Results flagged for a closer look

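The log2 scaled signal of PGRMC2 on C2 replicate 2, 4.98, stood apart from the other 4 C2 arrays, its gap to the nearest of them taking 0.738 of the range of the group. It was the only value so marked among the 24 sets of arrays (8 valid probes at 3 stages), and chance alone marks about 1 set in 20.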

How the results depend on the processing

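ESR2 was called in both comparisons of C2 under every alternative run, its log2 difference lying between -3.12 and -2.64 from C1 and between -3.66 and -2.87 from NC1. The 3 receptor probes called between C2 and C1 became 1 with array weights and 1 to 4 without 1 array. The 3 called between C2 and NC1 became 2 to 4 and the 3 passing the F test 1 to 4 without 1 array. The ordinary F test of the methods called 2. When C2 replicates 1 and 5, and 3 and 4, were averaged, an alternative chosen after seeing the data, 3 probes were called from C1 and 3 from NC1. The 75th percentile scaling moved the median change of all probes from 0.02 to -0.11 between C2 and C1 and from 0.11 to -0.04 between C2 and NC1.

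Changes of sign were confined to differences that were not called. With array weights, C2 against C1 turned for ESR1 (-0.17), NR3C1 (-0.017) and NRIP1 (-0.10), C2 against NC1 for PGRMC1 (0.060) and NRIP1 (-0.014), and C1 against NC1 for NR3C1 (0.29) and NRIP1 (0.081). With normexp, C1 against NC1 turned for NR3C1 (0.22), PGRMC1 (0.14) and NRIP1 (0.10), and C2 against NC1 for PGRMC1 (0.22). With scan day as a block, PGRMC1 turned to 0.0004 between C2 and NC1. Without 1 array, the differences ran from -0.025 to 1.15 for ESR1 between C2 and C1, from -0.088 to 0.090 for PGRMC1 and from -0.10 to 0.44 for NRIP1 between C2 and NC1, and from -0.20 to 0.10 for NR3C1 between C1 and NC1, so each of them took both signs. The cause was not tested.

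Over all valid probes, the 8 called between C1 and NC1 became 25 without a filter, 239 with array weights, 2 with slide as a block and 1 to 19 without 1 array. Replicate numbers do not pair the animals, since the correlation of same-numbered arrays' deviations ran from -0.32 to 0.25 over 16 pairs. With the replicate block, 0 probes were called between C1 and NC1 and 2 receptor probes between C2 and C1, PGR A_73_111533 losing its call (log2 difference 2.04, limma adjusted p = 0.0128). Of the counts of called list genes, 429 stayed within 1.5 times of the value reported and 33 did not, and without 1 array these were 684 and 30. Dim signals kept both NR3C2 probes and the probe similar to ESR1 out of the comparisons.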
